A study of Mus musculus with 3 samples.

Results

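The mouse genome holds many genes that carry a provisional symbol, either Gm followed by a number (predicted gene models) or a code ending in Rik (cDNA clones of the RIKEN collection). Regions listed under such symbols were taken from a 5-hydroxymethylcytosine (5hmC) map of the mouse embryonic stem cell (mESC) line Sv129, made by sequencing DNA pulled down with an antibody against 5hmC (hMeDIP-seq). They were chosen by symbol alone, with each region counted once per symbol, which gave 3375 of the 20227 listed gene and region pairs, or 3247 of 19817 distinct regions, under 1343 of 9293 symbols. An NM_ accession marks a transcript annotated as protein-coding and an NR_ accession one annotated as non-coding. Of the pairs, 1124 belonged to NM_ and 2251 to NR_ transcripts. A pair with transcripts of both kinds, which occurred 11 times, was counted as NM_.

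The cells of this single line were kept in serum-containing medium with folate at 4 mg/L (FA4) or at 0 mg/L (FA0), with no other genotype or agent in either group. The question was which regions differed in 5hmC between these conditions. Each condition was represented by 1 immunoprecipitated library. The differences therefore have no replicate check, and the read tests compare the 2 libraries and say nothing of the spread between cultures. An FA0 input sample of the same series was not used here. The tables list only regions that passed the authors' thresholds for a difference, so the ratios are selected to be large. Intervals are 95% intervals for counting error only, since PCR copies are not independent molecules and neighbouring regions are not independent draws. The listed Gm and Rik pairs held 48533 FA4 reads and 19632 FA0 reads, sums over listed regions that do not give library depth. Cell identity could not be checked from these regions of DNA.

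5hmC is made from 5-methylcytosine by the TET dioxygenases, and in embryonic stem cells it is known from enhancers, gene bodies and promoters of intermediate CpG content. Gm and Rik symbols are placeholders: they cover long non-coding RNAs, transcribed pseudogenes, coding genes that later received a name, and copies in young tandem gene clusters. Many RIKEN clones of long non-coding RNAs came from testis libraries. A read from a tandem cluster may fit several near-identical copies, and how such reads were assigned is not given in the sources used here, so counts of cluster regions are uncertain as to which copy they belong to.

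The promoter windows printed here belong to promoter pairs described below that were among those with the smallest exact p. They lie inside the listed region, so that the letters are DNA of the measured region itself. They run from 250 bases before to 50 bases after the RefSeq start site in GRCm38.p6, read 5′ to 3′ on the gene's strand, with each CG dinucleotide in capitals, since 5hmC in these cells is made mostly at CG. A CG reads the same on both strands, and 94.6% of all 32851 windows of this length hold at least 1. Regions higher in FA0 hold the windows of 1810037I17Rik (chr3:122924147-122924446, plus strand, 36 CG) and 2310068J16Rik (chr15:99973238-99973537, minus strand, 29 CG).
1810037I17Rik: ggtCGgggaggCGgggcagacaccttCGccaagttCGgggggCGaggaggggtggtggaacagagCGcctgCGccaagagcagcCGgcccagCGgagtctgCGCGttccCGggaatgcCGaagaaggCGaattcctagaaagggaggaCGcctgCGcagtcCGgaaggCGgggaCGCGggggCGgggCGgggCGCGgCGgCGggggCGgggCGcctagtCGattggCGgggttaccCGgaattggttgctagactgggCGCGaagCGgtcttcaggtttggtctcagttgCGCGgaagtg
2310068J16Rik: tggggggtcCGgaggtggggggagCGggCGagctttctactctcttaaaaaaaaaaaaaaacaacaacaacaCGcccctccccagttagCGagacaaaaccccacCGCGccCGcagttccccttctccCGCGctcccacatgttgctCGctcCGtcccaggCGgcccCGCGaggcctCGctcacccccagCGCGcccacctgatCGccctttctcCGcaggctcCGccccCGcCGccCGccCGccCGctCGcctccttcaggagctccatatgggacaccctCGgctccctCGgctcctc
Regions higher in FA4 hold the windows of Gm4858, now named Tdpoz8 (chr3:93068573-93068872, plus strand, 0 CG), and A430090L17Rik (chr13:114151543-114151842, minus strand, 4 CG).
Gm4858: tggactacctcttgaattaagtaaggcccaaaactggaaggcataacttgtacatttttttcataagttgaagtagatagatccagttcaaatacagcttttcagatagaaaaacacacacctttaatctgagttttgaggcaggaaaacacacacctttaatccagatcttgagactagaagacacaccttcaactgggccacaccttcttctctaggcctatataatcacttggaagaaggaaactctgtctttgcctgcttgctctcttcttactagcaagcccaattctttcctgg
A430090L17Rik: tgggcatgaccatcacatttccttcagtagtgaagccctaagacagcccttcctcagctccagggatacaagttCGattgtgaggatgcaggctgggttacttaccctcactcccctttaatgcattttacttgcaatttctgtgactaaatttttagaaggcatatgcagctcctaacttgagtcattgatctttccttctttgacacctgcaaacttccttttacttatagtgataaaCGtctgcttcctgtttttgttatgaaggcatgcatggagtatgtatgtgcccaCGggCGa
These few windows do not stand for their direction. Windows inside the regions of other described FA0-higher pairs were not printed, with 14 CG for Gm15545, 21 for 4930583K01Rik and 34 for 4933405D12Rik. A window was found for 101 of the 138 Gm and Rik promoter pairs (73.2%), and with so many missing a comparison of CG content between the directions is void. The 56 windows found for FA0-higher pairs held 1 to 46 CG, with a median of 8. The 45 found for FA4-higher pairs held 0 to 44, with a median of 4, so both ranges cover nearly the same span. Only 39 of the 101 windows overlapped their listed region. The 28 of FA0-higher pairs held 2 to 46 CG, with a median of 11. The 11 of FA4-higher pairs held 0 to 26, with a median of 4. Among the pairs described below, 9230116L04Rik (1 CG) and B430306N03Rik (2 CG) were higher in FA0 with few CG. 1700022H01Rik (39 CG) was higher in FA4 with many. The windows of these pairs lie outside their listed regions.

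Gm and Rik regions were mostly higher in FA4. Of the 3375 pairs, 1024 were higher in FA0, 30.3% (28.8% to 31.9%, Clopper-Pearson), and 2351 in FA4, against a background over all listed pairs of 39.0% higher in FA0 and 61.0% in FA4. Among the 16852 pairs of other symbols the share was 40.8% (40% to 41.5%), so the difference was -10.4 percentage points (-12.1 to -8.68, Newcombe). Counted once per distinct region, 30.5% (28.9% to 32.1%) of Gm and Rik regions were higher in FA0, against 38.9% of all distinct regions. The share depended on the test. With an exact two-sided binomial test on reads (p at 1e-04), 759 FA0-higher and 752 FA4-higher pairs passed. These were 74.1% and 32.0% of each, beside 74.7% and 26.2% over all listed pairs. The bar in reads differed by direction. Against 0 reads the test was passed from 11 FA0 reads or 17 FA4 reads, while the lists began at 10 and 13. The pass rates therefore do not show that FA0-higher regions are better supported. Among passing pairs the Gm and Rik share was 50.2% higher in FA0, against 64.6% over all listed pairs. With unscaled reads it was 13.4% against 18.4%.

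Most of these regions held few reads. FA4-higher pairs held a median of 15 FA4 reads (13 to 308), and 74.9% of them held 0 FA0 reads. FA0-higher pairs held a median of 16 FA0 reads (10 to 66), and 34.9% of them held 0 FA4 reads. FA4-higher regions had a median length of 1100 bp and FA0-higher regions one of 780 bp. Over all listed pairs the medians were also 15 and 16 reads, and the median lengths were 1080 and 760 bp. There, 32.3% of FA0-higher pairs held 0 reads in the other library. Of all FA4-higher pairs 80.8% (80.1% to 81.5%) did so, above the Gm and Rik value (73.1% to 76.6%). The smallest counts listed against 0 were 13 FA4 reads and 10 FA0 reads, at least 3.25-fold and 4.44-fold higher when the 0 was replaced by a floor of 3 reads. All folds are of normalized reads, and "at least" uses that floor per region.

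**Figure D1:**
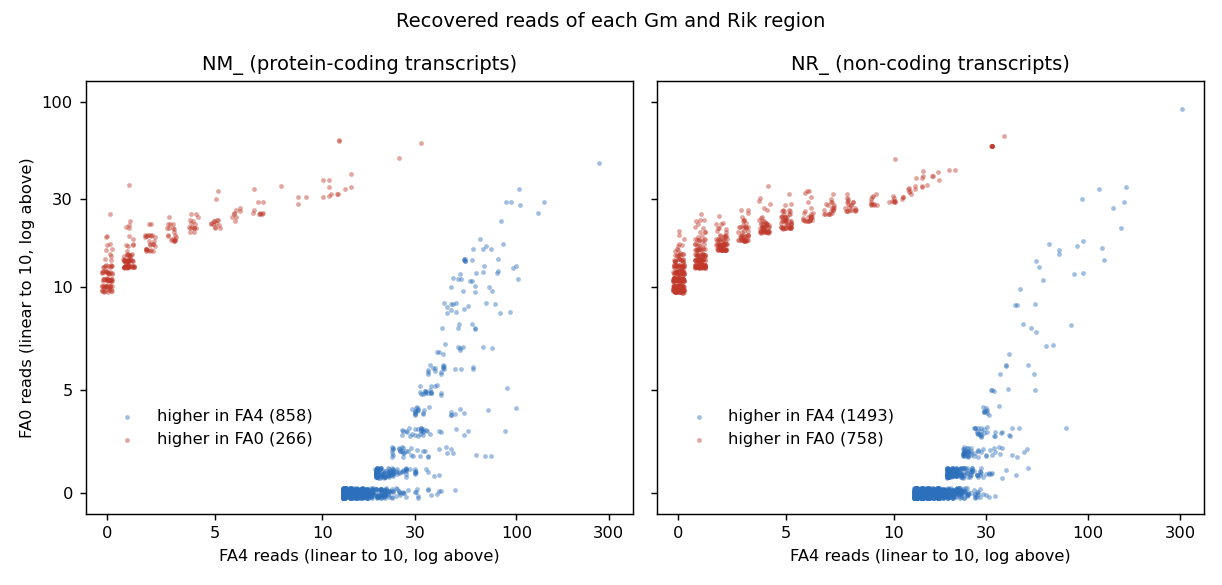
FA4 reads (x axis) and FA0 reads (y axis) of every Gm and Rik gene and region pair, one point per pair with a small random offset, for NM_ (left) and NR_ (right) transcripts, on axes that are linear to 10 and logarithmic above. The 2 directions form separate bands because unchanged regions are not listed, and 1761 of the 2351 FA4-higher pairs sit at 0 FA0 reads.

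The coding symbols leaned further to FA4 than the non-coding ones. Of the 1124 NM_ pairs 266 were higher in FA0, 23.7% (21.2% to 26.3%), and of the 2251 NR_ pairs 758 were, 33.7% (31.7% to 35.7%), a difference of -10 percentage points (-13.1 to -6.80). Among other symbols the shares were 40.9% for NM_ and 38.9% for NR_, with a difference of 2.01 points (-0.964 to 4.91). The low NM_ share came with the Gm symbols. Of the 721 NM_ pairs under Gm symbols 123 were higher in FA0, 17.1% (14.4% to 20%), while NM_ pairs under Rik symbols gave 35.5% (30.8% to 40.4%). Non-coding pairs gave 34.1% under Gm and 33.5% under Rik. The 4 windows of tandem genes, given below, and chromosome X held most of the NM_ Gm pairs: 283 lay in the clusters and 130 on X. Outside both, NM_ pairs were at 34.0% and NR_ pairs at 34.9%, a difference of -0.883 points (-4.91 to 3.28). This exclusion was chosen after seeing the data, so the smaller difference is not a test of where the NM_ share arose.

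The position of the regions also set them apart from other symbols. Intergenic sequence held 69.4% (67.8% to 71.0%) of Gm and Rik pairs against 44.8% (44% to 45.5%) of other pairs, and the NR_ pairs reached 74.2%. Introns held 13.9% against 33.3%, promoters 4.09% against 5.51%, upstream sequence 11.6% against 14.1% and exons 0.978% against 2.35%. An intergenic region lay a median of 99505 bp from the start site it was assigned to, so for most of these pairs the symbol names the closest annotated gene rather than the DNA that was pulled down. The distance was 119044 bp for NR_ and 70291 bp for NM_ transcripts.

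Within each class the Gm and Rik share higher in FA0 was below that of other symbols, by an amount that differed by class. In promoters it was 55.1% (76 of 138 pairs, 46.4% to 63.5%), beside a background of 61.6%, and the difference from other symbols was -7.47 points with an interval that included 0 (-16.3 to 1.18). In introns it was 25.7% beside a background of 43.3%, a difference of -19.0 points (-23.0 to -14.7). In upstream sequence it was 37.3% beside 46.9%, and in exons 30.3% beside 62.5% on only 33 pairs. In intergenic sequence it was 28.6% beside 30.8%, a difference from other symbols of -2.77 points (-4.85 to -0.634). Promoters were thus the class in which most Gm and Rik pairs were higher in FA0, and this reversed to 45.6% with FA4 scaled up by 25% and to 31.1% with unscaled reads. Without the clusters and chromosome X, an alternative chosen after seeing the data, the differences were smaller. They were -1.40 points in promoters (-10.7 to 7.32), -10.4 in introns (-15.4 to -5.08) and 0.299 in intergenic sequence (-1.97 to 2.62).

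**Figure D2:**
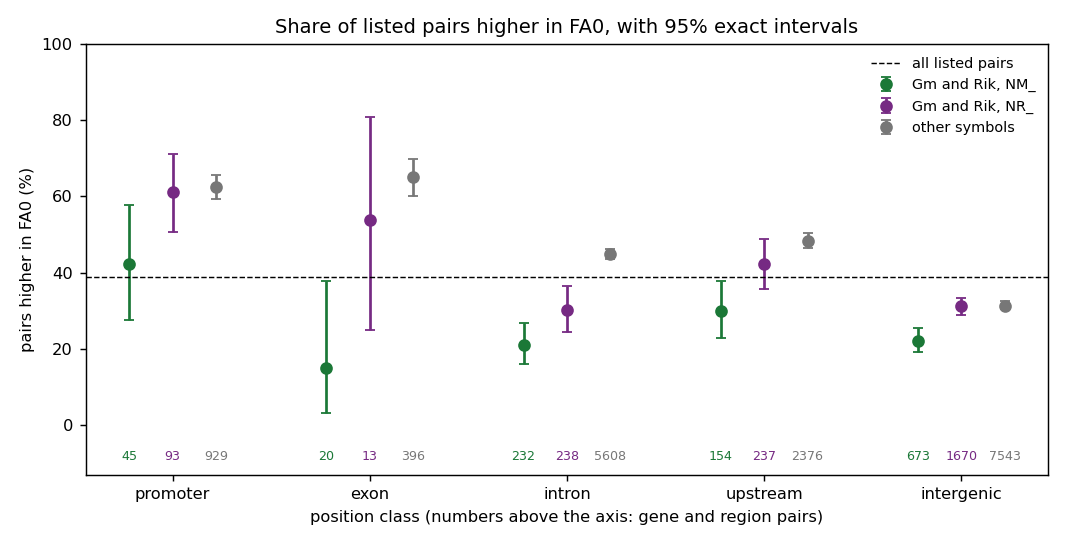
Percent of gene and region pairs higher in FA0 (y axis) by position class (x axis), for NM_ and NR_ Gm and Rik pairs and for other symbols, with 95% Clopper-Pearson intervals and the share over all listed pairs (39.0%) dashed. NM_ pairs were lowest in every class, from 42.2% in promoters to 15.0% in exons, and the intergenic NR_ pairs (31.3%) lay beside other symbols (31.4%).

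Promoter regions differed by transcript type, as they did for other symbols. Of the 93 NR_ promoter pairs 57 were higher in FA0, 61.3% (50.6% to 71.2%), and of the 45 NM_ promoter pairs 19 were, 42.2% (27.7% to 57.8%). The difference was -19.1 points (-35.2 to -1.38), beside -15.0 points (-23.5 to -4.38) for other symbols, whose NM_ promoter pairs were at 61.2% and NR_ pairs at 76.2%. Without the windows of tandem genes, an alternative chosen after seeing the data, 19 of 36 NM_ pairs (52.8%) and 57 of 89 NR_ pairs (64.0%) were higher in FA0, and the interval of the difference included 0 (-11.3 points, -29.5 to 7.16). The promoter pairs lay from -1942 to 1944 bp of a start site, negative values being upstream.

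The FA0-higher promoter regions with the smallest exact p held 0 to 10 FA4 and 17 to 38 FA0 reads. The region chr3:122924041-122924620 covers the start sites of 1810037I17Rik, annotated as coding, and of the non-coding 4933405D12Rik on the other strand, and it held 0 FA4 and 19 FA0 reads, at least 8.44-fold higher. Its window is the first printed above. The region of 4930447C04Rik (chr12:72916941-72917620, 485 bp into the gene), known as a gene of the meiotic synaptonemal complex, held 1 FA4 and 22 FA0 reads, a ratio of 29.3 (4.74 to 1211). That interval is wide because of the single FA4 read. B430306N03Rik (chr17:48315101-48315600) held 3 FA4 and 22 FA0 reads, and 4933428G20Rik (chr11:97498561-97499800) 7 FA4 and 29 FA0 reads. Among the non-coding transcripts, 9230116L04Rik (chr12:79102241-79103320) held 1 FA4 and 20 FA0 reads and Gm10789 (chr16:90142701-90143500) 0 FA4 and 17 FA0 reads.

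Several non-coding promoters lay in the same listed region as the promoter of a named gene, so that 1 listed region belongs to both. Of the 57 FA0-higher NR_ promoter pairs, 15 (26.3%, 15.5% to 39.7%) shared their region with the promoter of a named gene, as did 7 of the 36 FA4-higher NR_ pairs (19.4%, 8.19% to 36.0%). With NM_ pairs added, all 16 FA0-higher pairs and 7 of the 8 FA4-higher pairs had this partner on the opposite strand. The exception was Gm4027, listed with BB287469. D030040B21Rik shared its region (chr1:16656361-16657220) with Tceb1, which codes for elongin C, and it held 4 FA4 and 28 FA0 reads, a ratio of 9.33 (3.27 to 36.6). 2310068J16Rik shared its region (chr15:99972301-99973600) with Larp4, an mRNA-binding protein gene, and it held 6 FA4 and 31 FA0 reads, a ratio of 6.89 (2.83 to 20.2). Gm1661 shared its region (chr4:117253101-117254280) with Tmem53 and held 10 FA4 and 38 FA0 reads, a ratio of 5.07 (2.48 to 11.4). Other FA0-higher partners included Prmt1, the main enzyme of asymmetric arginine dimethylation, with Gm15545 (8 FA4 and 29 FA0 reads), the transcription factor genes Foxb1 with B230323A14Rik (6 and 25) and Tbx2 with 2610027K06Rik (4 and 21), and the nonsense-mediated decay kinase gene Smg1 with 4930583K01Rik (1 and 13). FA4-higher partners included Rbm8a, an exon junction complex subunit, with 6330549D23Rik (38 FA4 and 6 FA0 reads), Pcdh7, a protocadherin, with 4932441J04Rik (16 and 0), and Sar1a, a GTPase of COPII vesicles, with 1700022H01Rik (14 and 0). For such regions the provisional symbol and its named neighbour cannot be told apart.

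Of the 10 FA4-higher promoter regions with the smallest exact p, 5 for each transcript type, 6 lay in tandem clusters. The promoter region of 2610005L07Rik (chr8:20422901-20424020), a transcribed pseudogene in the chromosome 8 cluster, held 85 FA4 and 12 FA0 reads, a ratio of 5.31 (2.89 to 10.7). Its neighbour 6820431F20Rik (chr8:20296081-20296660) held 40 FA4 and 3 FA0 reads. In the chromosome 4 cluster the promoter regions of Gm13034 (43 FA4 and 1 FA0 reads), Gm13251, now Zfp992 (54 and 9), and Gm13157, now Zfp984 (20 and 0), were all higher in FA4, and in the chromosome 14 cluster that of Gm3383 was too (27 and 1). The Zfp symbols are zinc finger genes of a cluster of KRAB zinc finger genes. Outside the 4 windows of tandem genes described below, Gm4858, now Tdpoz8 (chr3:93067301-93069060), held 28 FA4 and 0 FA0 reads, at least 7-fold higher. It is a member of a BTB domain gene family, and Gm9125, now Tdpoz9 (chr3:93941941-93943040), was also higher in FA4 (20 and 1). A430090L17Rik (chr13:114151281-114152520) held 29 FA4 and 0 FA0 reads and 8430426J06Rik (chr15:81250501-81251220) 19 and 0. Gm4027 (chr12:87619281-87620560) held 24 and 0 in a region shared with BB287469. Whether these regions have tandem copies was not tested.

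**Figure D3:**
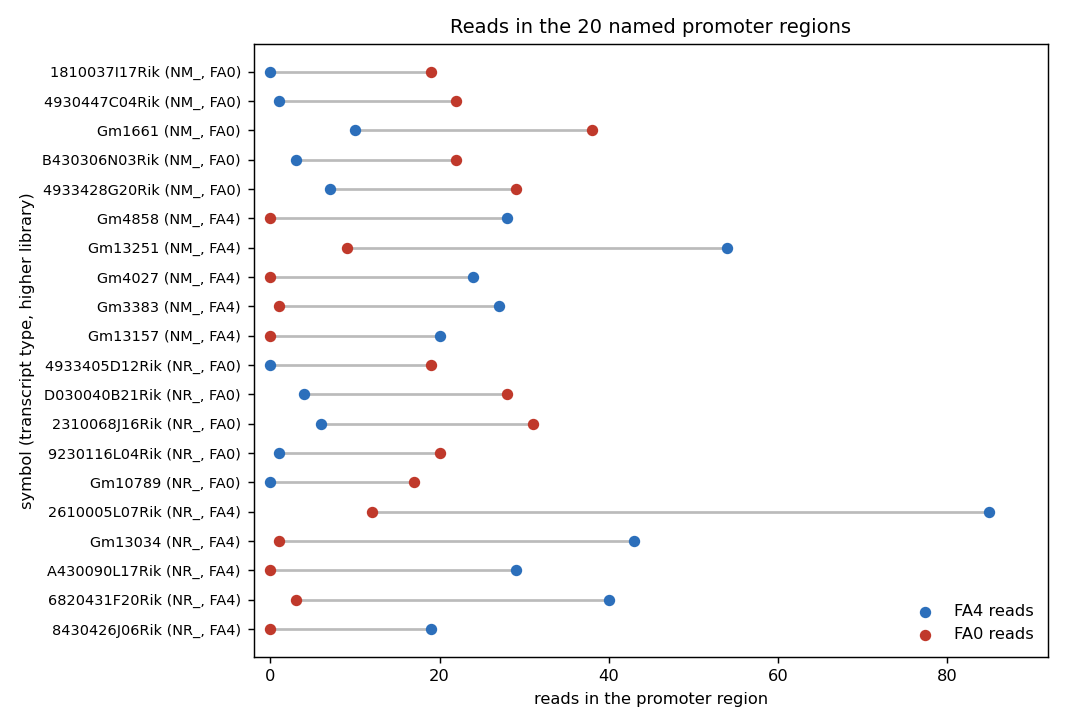
FA4 and FA0 reads (x axis, reads per region) of the promoter regions named by the smallest exact p in each set, 5 symbols each for NM_ and NR_ transcripts and each direction (y axis). FA0-higher regions held 17 to 38 FA0 reads and FA4-higher regions 19 to 85 FA4 reads, and the other library held at most 12.

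Over all classes, the strongest FA0-higher coding region was listed under 2 Y-linked symbols, Gm21708 and Gm3376 (chrY:4036441-4036940, intergenic), with 12 FA4 and 62 FA0 reads, a ratio of 6.89 (3.68 to 14). Gm3985 (chr8:33072981-33074420, at -123674 bp from the start site) held 1 FA4 and 36 FA0 reads, a ratio of 48.0 (8.08 to 1948). 2700062C07Rik (chr18:24455281-24456260, upstream) held 5 FA4 and 33 FA0 reads. 2510039O18Rik (chr4:147960361-147960980, intergenic) held 0 FA4 and 25 FA0 reads, at least 11.1-fold higher, and lies inside the chromosome 4 cluster, where nearly all other regions went the other way. Gm3985 itself had 12 listed regions, of which 9 were higher in FA4, so its strongest region did not describe the rest.

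The strongest FA4-higher coding region, of Gm21119 (chr8:20538421-20541720, intergenic), held 267 FA4 and 47 FA0 reads, a ratio of 4.26 (3.12 to 5.94). C130026I21Rik (chr1:85301321-85304520, intergenic) held 88 FA4 and 3 FA0 reads, a ratio of 22 (7.29 to 109), and all 12 of its regions between 85234801 and 85338500 on chromosome 1 were higher in FA4. This gene lies among the Sp100 family genes of chromosome 1. Gm15319 (chr8:20346141-20347960, intron) held 90 FA4 and 5 FA0 reads, Gm13251 (chr4:146435201-146436540, upstream) 74 and 2, and Gm5458 (chr14:19605661-19608040, upstream) 102 and 11. All 11 regions of Gm5458 and all 14 of Gm15319 were higher in FA4.

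Among non-coding symbols, the strongest FA0-higher region lay near 4930524C18Rik (chr14:114514641-114516520, intergenic), with 10 FA4 and 49 FA0 reads, a ratio of 6.53 (3.27 to 14.5). 1700036G14Rik (chr3:85174241-85175760, intergenic) held 4 FA4 and 35 FA0 reads, 1700001K23Rik (chr19:53273161-53274260, upstream) 1 and 25, Gm29811 (chr3:132795201-132796620, intergenic) 1 and 23, and 5930403L14Rik (chr4:154472321-154472900, intergenic) 0 and 20. Their positions ran from -316384 bp (4930524C18Rik) to 163757 bp (5930403L14Rik) of the start site, and the closest was 1700001K23Rik at -18505 bp. The 5 FA4-higher non-coding regions chosen in the same way held 77 to 308 FA4 and 3 to 92 FA0 reads. The region of Gm21944 (chr8:20812961-20814540) held 21 FA0 reads and was 5.29-fold (3.33 to 8.79) higher in FA4. 2810429I04Rik (chr13:3372741-3373220) held 308 FA4 and 92 FA0 reads, a ratio of 2.51 (1.98 to 3.20), and no other Gm or Rik pair had as many FA4 reads. 2610005L07Rik (chr8:20517881-20519280) held 122 FA4 and 14 FA0 reads and 6820431F20Rik (chr8:20145161-20146860) 77 and 3, both in the chromosome 8 cluster. 1700026F02Rik (chr8:70996981-71001040) held 118 and 16, and its 8 regions between 70976121 and 71057520 on chromosome 8 were all higher in FA4.

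In 4 windows of tandem genes taken as one set, nearly all Gm and Rik regions were higher in FA4. The chromosome 4 window, whose Gm and Rik regions ran from 144384641 to 147960980, holds KRAB zinc finger genes, the chromosome 8 window from 19 to 22 Mb lies in the defensin cluster, and the chromosome 14 windows from 3 to 8 Mb and from 41 to 45 Mb hold further tandem copies. Together they held 394 Gm and Rik pairs, of which 17 were higher in FA0, 4.31% (2.53% to 6.82%). The 103 pairs of other symbols in the same windows were at 21.4% (13.9% to 30.5%). On chromosome 8 the share was 4 of 150 pairs (2.67%), on chromosome 4 it was 5 of 104 (4.81%), on chromosome 14 from 3 to 8 Mb it was 5 of 128 (3.91%) and from 41 to 45 Mb it was 3 of 12. FA4-higher pairs in the windows held a median of 27 FA4 reads, against 15 outside, and only 37.4% of them had 0 FA0 reads, against 82.1% outside. The exact test was passed by 252 of these 377 pairs (66.8%), beside 26.2% of all listed FA4-higher pairs. Of the 81 FA4-higher pairs of other symbols in the windows, 40 passed (49.4%). With the windows left out, 33.8% (32.1% to 35.5%) of the remaining 2981 pairs were higher in FA0.

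Inside the windows the direction was shared across many symbols. On chromosome 14 from 3 to 8 Mb, Gm3264 had 15 regions, Gm10406 had 11, Gm3500 had 8 and Gm5797 had 8, each with 0 higher in FA0, while Gm3383 had 1 of 14, Gm5796 1 of 11 and 2610042L04Rik 1 of 6. On chromosome 4, 72 regions lay under 7 symbols now named as zinc finger genes, and 2 of these were higher in FA0, 1 each of Gm13242 (now Zfp980) and Gm13251 (now Zfp992). The largest, Gm13152, now Zfp982, had 31 regions, of which 28 were intronic, and all 31 were higher in FA4, with 13 to 83 FA4 reads and 0 to 23 FA0 reads. Gm13154 (now Zfp985) and Gm13247 (now Zfp981) each had 9 regions, all higher in FA4. The Gm13251 exception (chr4:146474981-146475760) held 32 FA4 and 60 FA0 reads, so high counts in the window were not always on the FA4 side.

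**Figure D4:**
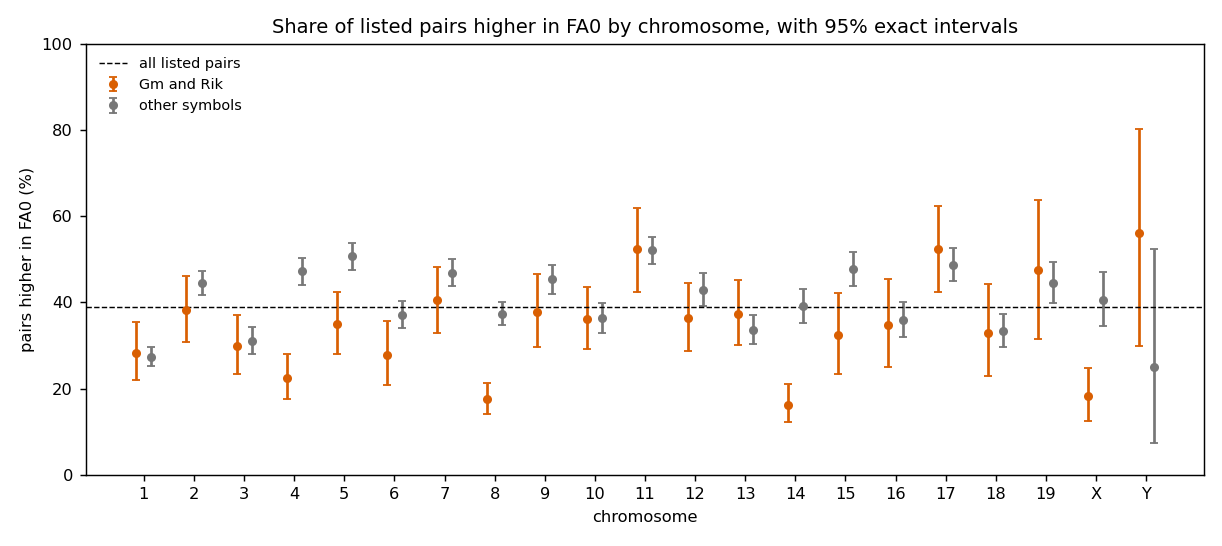
Percent of gene and region pairs higher in FA0 (y axis) on each chromosome (x axis) for Gm and Rik pairs and for other symbols, with 95% Clopper-Pearson intervals and the share over all listed pairs dashed. Gm and Rik pairs fell well below other symbols on chromosomes 4 (22.4% against 47.2%), 8 (17.5% against 37.4%), 14 (16.3% against 39.2%) and X (18.2% against 40.6%), and the highest shares among autosomes were on chromosomes 11 (52.3%) and 17 (52.4%), where other symbols were at 52.2% and 48.8%.

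On chromosome X, 30 of 165 Gm and Rik pairs were higher in FA0, 18.2% (12.6% to 24.9%), against 40.6% (34.5% to 47.0%) of pairs of other symbols. Much of this rested on few regions listed many times. The Gm symbols now named as the Btbd35f family, BTB domain genes in tandem copies, made 87 pairs out of 26 distinct regions under 15 symbols, and 22 of these 26 regions were higher in FA4, with 0 to 54 FA4 and 0 to 24 FA0 reads each. Without them, 22 of 72 distinct regions on X were higher in FA0, 30.6% (20.2% to 42.5%). On chromosome Y, 8 of 14 distinct regions were higher in FA0, 57.1% (28.9% to 82.3%). The Y regions other than the one of Gm21708 and Gm3376 held at most 15 reads in either library.

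The number of regions per symbol varied widely. Of 1343 symbols 656 had 1 region and 34 had 10 or more. The 34 held 538 pairs, of which 10.8% were higher in FA0, beside 39.0% of all listed pairs. The share for other symbols with as many regions is not given. Gm21119 had 73 regions between 19621841 and 20707780 on chromosome 8, and 70 were higher in FA4, with a median of 41 FA4 and 4 FA0 reads. The 3 FA0-higher regions of Gm21119 held 6 to 14 FA4 and 25 to 35 FA0 reads. 6820431F20Rik, a transcribed pseudogene beside it, had 30 regions, of which 29 were higher in FA4, and 2610005L07Rik had 19, all higher in FA4. Gm14346, now Btbd35f11, had 15 regions, all higher in FA4, and Gm14351, now Btbd35f10, was listed for the same regions. These symbols lie in clusters, and 190 pairs shared 62 regions among Gm and Rik symbols.

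The regions of 3 other symbols among the 8 with the most regions lay outside these clusters and ran both ways. 4930474H20Rik, a long non-coding RNA, had 24 regions between 90136441 and 91984980 on chromosome 14, 6 higher in FA0 and 18 in FA4. A330008L17Rik, also non-coding, had 20 regions between 99469281 and 101071100 on chromosome 8, 6 higher in FA0 and 14 in FA4. 1700007B14Rik, now Iqcm, a gene named for its IQ motif, had 20 regions, of which 14 were intronic, 2 were higher in FA0 and 18 in FA4. Their FA4-higher regions held at most 28 reads each, few beside the cluster symbols. 1700017L05Rik on chromosome 5 had 13 regions, all higher in FA4 and all with 0 FA0 reads.

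**Figure D5:**
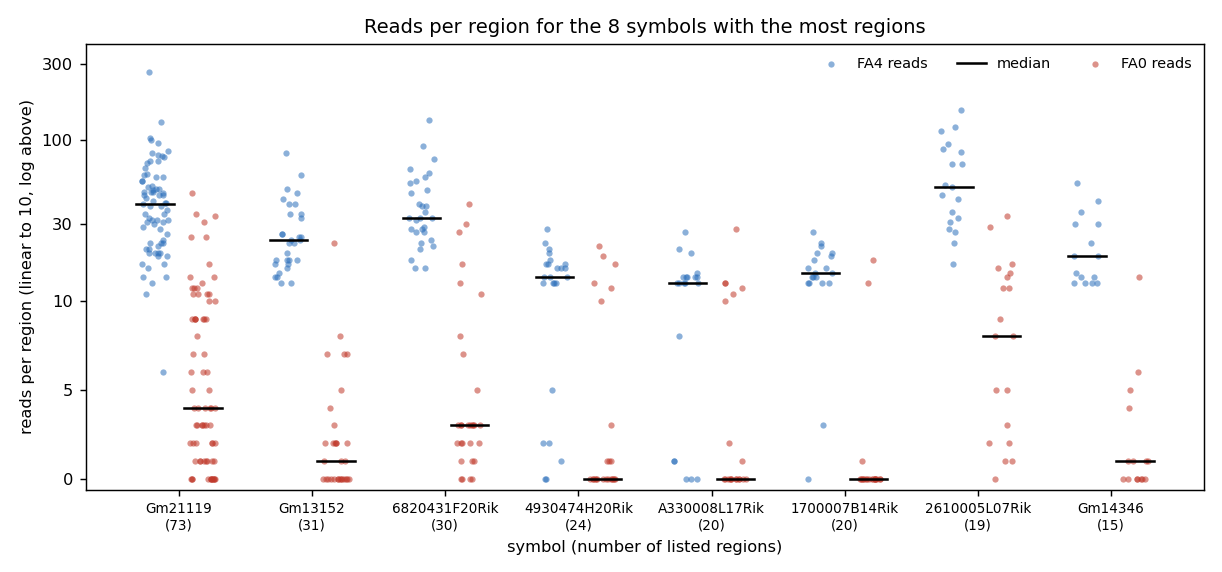
FA4 and FA0 reads per region (y axis, linear to 10 and logarithmic above) for the 8 symbols with the most listed regions (x axis, number of regions in brackets), one point per region with the median as a bar. The cluster symbols Gm21119, Gm13152, 6820431F20Rik and 2610005L07Rik reached 83 to 267 FA4 reads, and 4930474H20Rik, A330008L17Rik and 1700007B14Rik stayed at or below 28.

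Few symbols with several regions went mostly to FA0, where 61.0% of all listed pairs were higher in FA4. The counts per symbol are not given for other symbols. Whether they are particular to Gm and Rik symbols was not tested. Of the 241 symbols with 4 or more regions, 31 had most of them higher in FA0, which were 5 of 68 NM_ symbols (7.35%, 2.43% to 16.3%) and 26 of 173 NR_ symbols (15.0%, 10.1% to 21.2%). Among symbols with 10 or more regions, Gm833, a long non-coding RNA on chromosome 4, was the only one with most regions higher in FA0, 8 of 12. Its FA0-higher regions held 0 to 5 FA4 and 11 to 23 FA0 reads, and its 4 FA4-higher regions held 13 to 22 FA4 and 0 FA0 reads. A330074K22Rik, 1810010D01Rik, Gm1968, 4930555G21Rik and 4930517M08Rik each had 4 regions, all higher in FA0, and 1700029N11Rik had 5 of 6. No symbol with 5 or more regions had all of them higher in FA0, and of the 687 symbols with at least 2 regions 88 had only FA0-higher, 261 only FA4-higher and 338 both.

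Of the member symbols 142 carry another name in the RefSeq table of GRCm38.p6, and some of these are genes of known role, although a region far from the start site is tied to the gene only as its closest annotation. Outside the clusters and the Btbd35f family, 118 symbols with 204 distinct regions had a changed symbol, here counting changes to another provisional symbol too. Of these regions 37.3% (30.6% to 44.3%) were higher in FA0, near the 39.0% of all listed pairs. 3110043O21Rik is C9orf72, a gene of endosome and autophagy traffic, and its 4 intergenic regions, at -286910 to -84050 bp from the start site, were split, with 7 FA4 against 25 FA0 and 2 against 16 reads in the FA0-higher ones and 13 and 14 FA4 reads against 0 in the others. 9030624J02Rik is Vps35l, a subunit of the retriever sorting complex, with 3 of 4 regions higher in FA0 (1 and 14, 6 and 24, and 3 and 18 FA4 and FA0 reads). 1810041L15Rik is Shisal1, with 3 of 3 higher in FA0, the strongest at chr15:84396741-84397700 in an intron with 11 FA4 and 38 FA0 reads, a ratio of 4.61 (2.31 to 9.99). Gm5607 is Sox1ot, the transcript that overlaps the neural transcription factor gene Sox1, and both its regions, at -130540 and -103360 bp from the start site, were higher in FA0, with 7 FA4 and 30 FA0 reads and 8 and 27. 1110037F02Rik is Virma, a subunit of the m6A RNA methyltransferase complex, with 1 of 3 regions higher in FA0 (7 and 25 reads), and 1700112E06Rik is Lrmda, a melanocyte differentiation gene, with 1 of 8. These genes were picked after their values were seen. Among small families of renamed symbols, 0 of 5 distinct regions were higher in FA0 for Pate and for Aadacl4 genes, 1 of 5 for Pramel, 2 of 5 for H2a and 1 of 7 for Tdpoz and Spopfm.

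By RefSeq gene type, long non-coding RNAs gave 34.5% (32.4% to 36.6%) of 2002 pairs higher in FA0. Other symbols of that type gave 41.1% (35.2% to 47.2%) of 270 pairs. Transcribed pseudogenes gave 22.1% (16.7% to 28.2%) of 213, against 36.7% (28.1% to 45.9%) of 120 pairs of other symbols. Protein-coding genes gave 23.7% (21.2% to 26.3%) of 1111, against 40.9% (40.1% to 41.7%) of other symbols. Over all listed pairs the 3 types were at 35.3%, 27.3% and 39.8%, and the first 2 consist mostly of Gm and Rik pairs. Beside the 39.0% of all listed pairs, the RIKEN prefixes of testis libraries gave 32.5% (29.8% to 35.3%) of 1129 pairs, other RIKEN libraries 36.0% (32.7% to 39.3%) of 842, and the embryonic stem cell library 2 of 12 pairs. Of those 12, 6 were regions of 2410141K09Rik on chromosome 13, all higher in FA4. Small RNA genes were few. The 6 Gm symbols of 5S ribosomal RNA (Gm22109, Gm22291, Gm23284, Gm25018, Gm25212 and Gm26391) shared 1 region, chr8:123603601-123605000, where FA0 was 2.42-fold (1.54 to 3.85) higher, at 58 reads against 32. The microRNA symbols Gm23363, Gm27740 and Gm27775 made 5 pairs in 3 regions, all higher in FA0, with 1 to 4 FA4 and 13 to 21 FA0 reads, while over all 661 listed microRNA pairs 40.5% were.

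Exon regions were rare, with 33 pairs, 10 of them higher in FA0. D930015E06Rik, now Tmem131l (chr3:83898641-83899820), held 1 FA4 and 21 FA0 reads in its exon region, a ratio of 28, and that of Gm9573 (chr17:35620781-35621680) held 25 and 50. On the FA4 side the exon region of Gm21119 (chr8:20061541-20062460) held 48 FA4 and 0 FA0 reads, at least 12-fold higher, and that of A530032D15Rik (chr1:85088001-85088620) held 53 and 7. The other FA4-higher exon regions held 13 to 46 FA4 reads.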

How the data were processed

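DNA of 1 FA0 and 1 FA4 culture was immunoprecipitated for 5hmC. The labels and the study's methods name different extraction and immunoprecipitation kits and fragment sizes, which was not settled. Cutadapt 1.9.1, Bowtie2 2.2.4 and build mm10 are listed in the submitters' processing notes. Which program called the differential regions is not given in the sources used here. Of the 4 deposited tables, those of promoters (1386 rows) repeat rows of the genome tables, which split the regions by direction. Each value is a normalized signal, deposited by the authors as reads multiplied by a library factor. Columns with the authors' fold, p and false discovery rate hold their own comparison and were not used, nor were 8 columns of per-sample averages.

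The normalized values were whole multiples of 0.866 (FA4) and 1.15 (FA0), and 100% came out as whole reads within 0.02, with a largest distance of 0.0106. Reads were taken by division. The step of each library was found once, from its values in all tables together. The genome tables' 26808 rows, 1 per region and transcript, were reduced to 1 per symbol and region, with the class of the transcript whose start site was nearest. For the exact test, reads of both libraries entered a two-sided binomial test (null share of FA4 57.1%), called at p of 1e-04. Shares have Clopper-Pearson, differences of shares Newcombe and ratios exact conditional binomial 95% intervals, and a ratio against 0 uses a floor of 3 reads. Symbols were matched to the GRCm38.p6 gene table (1331 of 1343 matched), and promoter sequences are those of RefSeq.

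Named regions were, for each transcript type and direction, the 5 symbols with the smallest exact p over all classes and over promoters, and the 8 symbols with the most regions. Symbols, windows and clone lists were chosen with earlier results of these data known. Alternatives changed the test, the minimum count, the scaling, the counting unit and the chromosomes, clusters or symbols included. The calculations were tested on simulated data. Scripts ran in Python 3.11.15 with scipy 1.17.1, numpy 2.4.6 and pandas 2.3.3, and figures in matplotlib 3.10.9.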

Additional observations from a re-analysis of the deposited data

How the results depend on the processing

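The shares higher in FA0 depended on the test, the read minimum and the scaling, and the tables allow regions to be removed but not added. With the exact binomial test 1511 of 3375 pairs passed, and the share was 50.2% for all pairs, 36.5% for NM_, 58.3% for NR_, 74.7% for promoters, 39.7% for Gm and 58.6% for Rik, with NM_ minus NR_ at -21.8 points. The majority thus turned for all pairs, for NR_ and for Rik. With at least 20 normalized counts 830 pairs were left, and the values in the same order were 50.5%, 31.1%, 64.6%, 69.8%, 37.1%, 62.7% and -33.4 points. With unscaled reads they were 13.4%, 10.5%, 15.0%, 31.1%, 11.2%, 15.1% and -4.45 points. With FA4 scaled up by 25% they were 23.5% for all pairs, 18.4% for NM_, 26.1% for NR_, 45.6% for promoters, 19.3% for Gm and 26.5% for Rik. With FA0 scaled up by 25% they were 32.3% for all pairs and 27.7% for Gm. The background over all listed pairs moved too, to 64.6% with the exact test, 18.4% unscaled, 31.3% with FA4 scaled up and 40.6% with FA0 scaled up. Counted once per symbol, the shares were 40.5% for all pairs, 36.9% for NM_, 42.2% for NR_, 36.5% for Gm and 43.1% for Rik, with NM_ minus NR_ at -5.22 points. Without the cluster windows they were 33.8% for all pairs, 30.9% for NM_ and 30.9% for Gm, with NM_ minus NR_ at -3.94 points, and without the windows and chromosome X, an alternative chosen after seeing the data, 34.7%, 34.0%, 33.2% and -0.883 points. Without the 10 symbols with the most regions they were 32.3% for all pairs, 27.3% for NM_ and 28.1% for Gm, and without chromosome 8 the share of all pairs was 32.3%. The causes were not tested. The other 52 of 99 values moved by less than their counting interval, among them all those for a 4-fold minimum, distinct positions, merging within 1000 bp and autosomes. Of 160 recomputed region ratios 119 stayed within their interval and none changed direction. Among the other 41, only that of 2810429I04Rik with unscaled reads (3.35) left its interval (1.98 to 3.20). The rest were ratios against 0 reads, which have no interval to compare with. No paired analysis was possible because each condition had 1 immunoprecipitated library. Depth limits every region: most held under 20 reads in the higher library, and 0 reads in the other library does not show absence.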
